A study of Rattus norvegicus with 12 samples.

Results

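Gene expression in the deep and the superficial sublayer of hippocampal area CA1 was compared within 3 control rats. The comparison used the 6 control libraries of the 12 in the series, chosen by their labels: a deep and a superficial library from each animal, joined by the replicate number. Control rats were adult male Wistar rats, labelled as 45 to 50 days old and 180 to 200 g, that had received injections of vehicle and the same care as the kainate-treated animals. The same age is given for the epileptic rats, and the labels do not say whether it is that at treatment or at sampling. The vehicle was saline or DMSO, and the labels do not say which animal received which. The other 6 libraries came from 3 rats that had received repeated injections of 5 mg/kg kainate until status epilepticus began, and that were sampled in the chronic phase, 6 to 8 weeks after it. These entered the test because all 12 libraries share 1 estimate of the spread. In every animal, cell bodies of the 2 sublayers had been cut by laser from 20 µm frozen sections by their position, and the labels name no marker gene for the choice.

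CA1 pyramidal cells send the main output of the hippocampus to the subiculum and cortex. Their cell bodies are stacked in a thin layer, where the deep cells border the stratum oriens and the superficial cells border the stratum radiatum. In rodents the deep cells are born earlier in development than the superficial cells. The calcium-binding protein calbindin is commonly used as a marker of the superficial cells, and the 2 sublayers are known to differ in their inputs and firing. The question of the comparison is which genes the 2 sublayers express at different levels in the absence of epilepsy.

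The files identify genes by Ensembl identifiers, and a gene name could be assigned to 0 of 32662 from the tables used here. Genes are therefore described as groups, by direction, size and level, and 4 identifiers are given in full. No function is assigned to any of them, and the markers of calbindin-expressing or other cells were not analysed here, so that the labelled tissue was not checked against marker genes. A laser-cut sublayer can hold interneurons, glia and vessels besides pyramidal cells. In such bulk samples, fewer cells of a type and less RNA per cell cannot be told apart.

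The 6 control libraries held 16135358 to 19550582 reads assigned to genes, between 28.6 and 30.8% of the tallied alignments. Deep and superficial libraries did not differ in one direction in depth, since the superficial library was the deeper one in 2 of 3 animals. They did differ in how reads were tallied. Alignments outside annotated features made up 42.8% ± 2.04 of the tally in deep and 39.6% ± 3.36 in superficial libraries (SD, n = 3 each), and were lower in the superficial library in 3 of 3 animals, with a superficial minus deep difference of −1.80, −4.62 and −3.21 percentage points in animals 1, 2 and 3. Alignments that were not unique took up 27.2% ± 1.30 in deep and 31.1% ± 3.42 in superficial libraries (SD, n = 3 each). They were higher in the superficial library of every control animal, by 2.10, 6.28 and 3.26 percentage points. An exact sign-flip test over 3 animals gives p = 0.25 for both, the smallest two-sided value that 3 pairs allow. Their part in the results below was not tested beyond the fit with the share outside features as a covariate, which is given where it changed a result.

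Superficial and deep CA1 of control rats differed in 1248 of the 14791 identifiers tested, a share of 8.44%. Of these, 630 (4.26% of those tested) were higher in superficial and 618 (4.18%) higher in deep libraries, by edgeR's quasi-likelihood test within animals at an adjusted p below 0.05. Most differences were below 2-fold. The median fold was 1.24 among the superficial-higher and 1.37 among the deep-higher identifiers, which also differed in level. Within a class of level the medians were closer, at log2 sizes of 0.25 and 0.27 for identifiers of 100 or more counts per 1000000 and 0.80 and 0.78 for those of 1 to 5. Between 20 and 100, the class with the most calls, the deep-higher median stayed the larger one, at 0.353 against 0.298. Of the superficial-higher identifiers, 85.7% differed by less than 1.5-fold, 67 by 1.5- to 2-fold and 23 by a fitted 2-fold or more. Of the deep-higher identifiers, 69.4% differed by less than 1.5-fold, 138 by 1.5- to 2-fold and 51 by a fitted 2-fold or more. With the share of alignments outside features as a covariate 845 were called, 642 of them among the 1248. At a stricter adjusted p of 0.01, 259 were higher in superficial and 292 in deep libraries, and at 0.001 the numbers were 70 and 85.

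**Figure D1:**
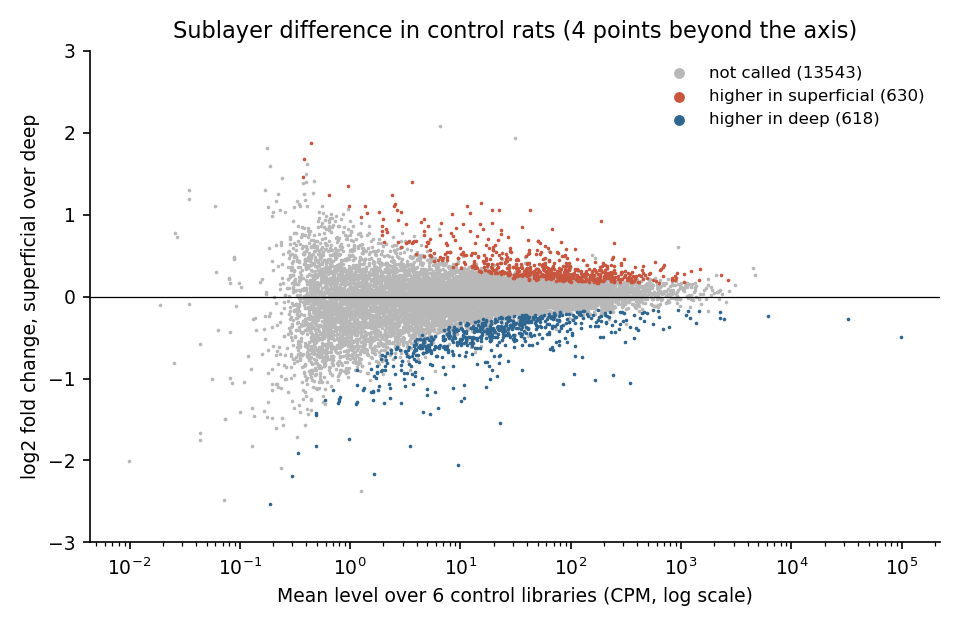
Each point is 1 of 14791 identifiers, with its mean level over the 6 control libraries in CPM (log scale) on the horizontal axis and the fitted log2 fold change of superficial over deep on the vertical axis, where 4 points lie beyond the axis. The 630 superficial-higher points crowd at high levels and close to 0, with a median of 60.5 CPM against 19.3 CPM for the 618 deep-higher points, and 1 called point, on the superficial side, is among those beyond the axis.

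The groups of called identifiers separated most libraries even when the pairing was set aside. For 532 of the 630 superficial-higher identifiers (84.4%), all 3 superficial libraries lay above all 3 deep libraries in level. The same held in the other direction for 504 of the 618 deep-higher identifiers (81.6%). Over all identifiers tested, the 3 libraries of a sublayer lay apart from those of the other for 21.7%, in either direction. The test selects for such separation, so these shares describe the calls and are no further evidence for them.

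Level and direction were linked. Levels are given as CPM, counts per 1000000 of the TMM-scaled library size. Among the 1873 identifiers with a mean level of 100 CPM or more, 202 (10.8%) were higher in superficial and 87 (4.64%) in deep libraries. At 20 to 100 CPM the calls were closer to even, with 288 superficial-higher and 217 deep-higher identifiers of 4896. Below 20 CPM the deep direction was the more frequent one. Between 5 and 20 CPM, 97 identifiers were superficial-higher and 198 deep-higher, and between 1 and 5 CPM the numbers were 36 and 103. The median level was 60.5 CPM for superficial-higher, 19.3 CPM for deep-higher and 16.5 CPM for all identifiers tested. Over all identifiers of a class, called or not, the median log2 fold change was 0.05 at 100 CPM or more and −0.06 between 1 and 5 CPM. Between 5 and 20 CPM it was −0.000979, so that there the deep direction showed in the calls and not in the median.

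The excess of superficial-higher calls among abundant identifiers was lost in 1 fit and nearly lost in another. With the share of alignments outside features as a covariate, the calls at 100 CPM or more were 109 superficial-higher and 116 deep-higher, and the median log2 fold change of the class was 0.0217. Without control animal 2 they were 43 and 41, with a median of 0.0449 in the class, against 0.0467 in the fit of all animals. In the remaining 13 fits that kept the animal in the model the superficial direction was the more frequent one at that level. Below 20 CPM the deep direction was the more frequent one in each of these 15 alternatives, where superficial-higher calls made up 25 to 38.2%. The 38.2% came from the fit with the share outside features as a covariate. In that fit the median log2 fold change below 20 CPM was −0.00927, against −0.0307 in the fit of all animals without the covariate.

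**Figure D2:**
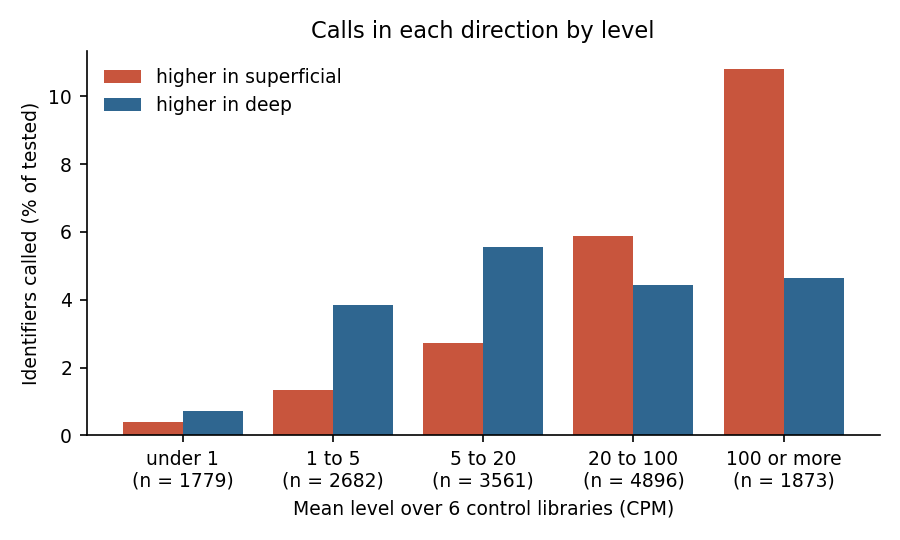
Bars give the share of tested identifiers called in each direction, in percent, for 5 classes of mean level over the 6 control libraries in CPM, with the number tested under each class. Superficial-higher calls rise to 10.8% in the class of 100 CPM or more, while deep-higher calls lie between 3.84 and 5.56% in every class above 1 CPM.

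In the counts of calls, the superficial excess was not seen among the 100 most abundant identifiers. Of the 10 highest in mean level, which together held 16.7% of all control gene counts, 4 were higher in deep and 1 in superficial libraries. The top one alone accounted for 11.2, 12.97 and 11.7% of the gene counts in the deep libraries of animals 1, 2 and 3. In the superficial libraries of the same animals its share was 8.24, 8.35 and 9.37%. Every deep library lay above every superficial one, and the fitted level was 1.41-fold higher in deep CA1 (log2 fold change −0.50, SE 0.07, edgeR adjusted p = 0.0004232). Among the 100 highest identifiers, 11 were higher in superficial and 12 in deep libraries, and among the 1000 highest the numbers were 133 and 58. For comparison, 8.44% of all identifiers tested were called in either direction, and 15.4% of those at 100 CPM or more. The median log2 fold change was 0.000402 for the 10 highest, 0.0645 for the 100 highest and 0.0544 for the 1000 highest. By that measure the 100 highest did lean to the superficial side.

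The called groups made up a visible share of the RNA in each library. The 618 deep-higher identifiers held 21.5% ± 0.927 of the gene counts in deep and 16.6% ± 0.923 in superficial libraries (SD, n = 3 each). Most of that gap lay in the single most abundant identifier, since without it the shares were 9.53% ± 0.435 and 7.91% ± 0.318. The 630 superficial-higher identifiers held 9.16% ± 0.209 of the counts in superficial and 7.40% ± 0.149 in deep libraries (SD, n = 3 each). These shares describe sets chosen on the same libraries and carry no test.

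The 2 largest superficial-higher differences at a mean log2 CPM of 3 or more were those of ENSRNOG00000021067 and ENSRNOG00000025115. ENSRNOG00000021067 had 9.80, 8.69 and 10.6 CPM in the deep libraries of animals 1, 2 and 3, and 21.3, 23.1 and 19.6 CPM in their superficial libraries. The groups did not overlap, and its deep level varied little between animals. The fold was 2.21 (95% interval 1.89 to 2.58, log2 fold change 1.14, SE 0.11, edgeR adjusted p = 1.232e-05). ENSRNOG00000025115 had 7.36, 8.53 and 5.70 CPM in deep and 17.6, 17.3 and 11.8 CPM in superficial libraries. Animal 3 had the lowest value in both sublayers, but its superficial library still lay above all deep libraries. The fold was 2.16 (95% interval 1.83 to 2.54, log2 fold change 1.11, SE 0.11, edgeR adjusted p = 2.323e-05).

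In the deep direction the largest differences at that level were those of ENSRNOG00000004554 and ENSRNOG00000022386. ENSRNOG00000004554 had 31.5, 37.5 and 33.3 CPM in the deep libraries of animals 1, 2 and 3 and 9.85, 12.8 and 12.4 CPM in the superficial ones. It was the most distinct of the 4, with a wide gap between the groups and log2 differences of −1.66, −1.54 and −1.42 in the 3 animals. The fold was 2.93 (95% interval 2.36 to 3.63, log2 fold change −1.55, SE 0.14, edgeR adjusted p = 6.182e-05). ENSRNOG00000022386 had 9.16, 13.6 and 22.3 CPM in deep and 4.07, 5.46 and 9.61 CPM in superficial libraries. Here the animals differed more than in the other 3 identifiers, and the superficial library of animal 3 lay above the deep library of animal 1. Within animals the difference was nearly constant, at −1.15, −1.30 and −1.20 on the log2 scale (fold 2.35, 95% interval 1.95 to 2.83, SE 0.13, edgeR adjusted p = 2.583e-05). With the share of alignments outside features as a covariate, both log2 fold changes were smaller. They were −1.29 for ENSRNOG00000004554 and −0.98, below 2-fold, for ENSRNOG00000022386. In that fit ENSRNOG00000021067 and ENSRNOG00000025115 had 1.12 and 1.05.

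**Figure D3:**
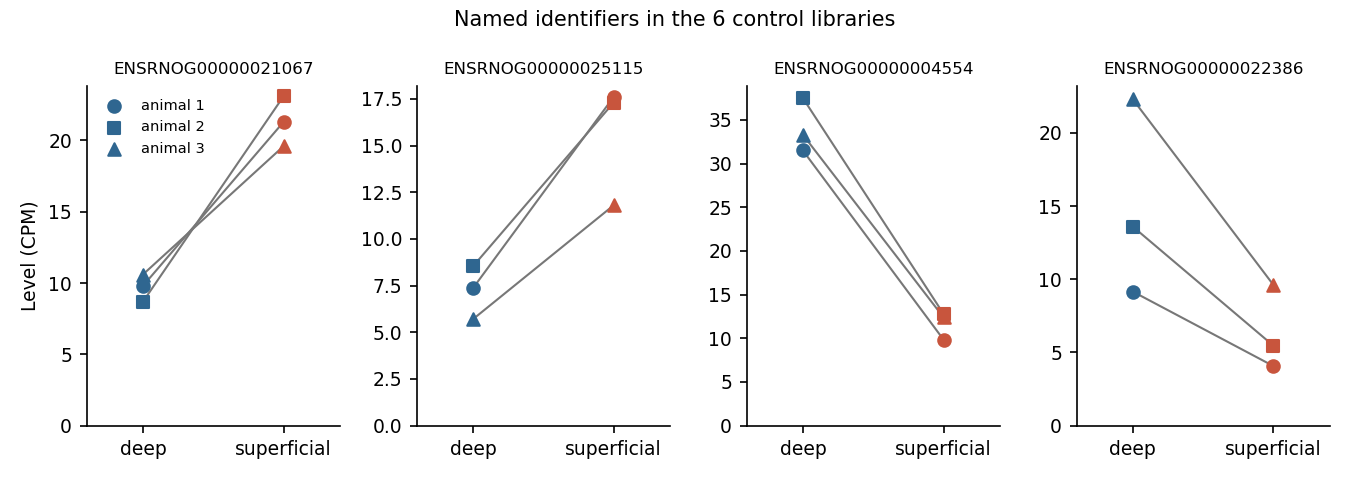
Points are the levels in CPM of the 4 named identifiers in deep and superficial libraries, and each line joins the 2 libraries of a control animal. All 3 lines rise for ENSRNOG00000021067 and ENSRNOG00000025115 and all 3 fall for ENSRNOG00000004554 and ENSRNOG00000022386, where animal 3 starts at 22.3 and animal 1 at 9.16 CPM.

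Differences of 2-fold or more were rare among well-expressed genes. Of the 74 called identifiers with such a fold (0.500% of those tested), 68 had a mean level below 20 CPM, and the median level was 2.50 CPM for the 23 superficial-higher and 2.02 CPM for the 51 deep-higher ones. At 20 CPM or more there were 2 superficial-higher and 4 deep-higher identifiers, and the highest mean level among them was 346 CPM, on the deep side. Of 9323 identifiers with a mean log2 CPM of 3 or more, 1 was at least 2-fold higher in the superficial library of all 3 animals and 3 in the deep library of all 3. Below 1 CPM the smallest called log2 fold change was 1.1 in size, so that every call at that level was above 2-fold.

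Transcripts read in only 1 sublayer of control rats had few reads. Of the 22173 identifiers with a read in at least 1 control library, 19435 had reads in both sublayers. Another 50 were read in all 3 superficial and no deep library, and 37 in all 3 deep and no superficial library. The highest level of any identifier without a read in the other sublayer was 0.314 CPM on the superficial side, 18 reads over 3 libraries, and 0.185 CPM on the deep side, 10 reads. A count of 0 allows up to 3 reads per library, so absence from a sublayer was not shown for any of these, and no identifier above these levels went unread in a whole sublayer. These limits cover counting error only.

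For most identifiers that were not called, the data bounded the difference. The 95% interval of the fold excluded a 1.5-fold difference in either direction for 9794 of the 13543 identifiers not called (72.3%), and a 1.2-fold difference for 4898 (36.2%). The bound was set by level. At 100 CPM or more, 83.5% of the identifiers not called had an interval within 1.2-fold and 99.6% within 1.5-fold. Between 1 and 5 CPM, 32.7% lay within 1.5-fold and 86.6% within 2-fold, and below 1 CPM 26.5% lay within 2-fold. The smallest called log2 fold change was 0.16 at 100 CPM or more and 0.46 between 1 and 5 CPM, so that small differences of weakly expressed genes were not detectable with these 3 animals at this depth.

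The animal and the sublayer each had a large part in the data. Across 6769 identifiers of 20 CPM or more in the 6 control libraries, the animal accounted for 48.9% of the variance of log2 CPM. The sublayer accounted for 39.4% and the rest for 11.7%. The animal term spans 3 animals and the sublayer term 2 sublayers, so these shares do not rank the terms. The first principal component (40.6% of the variance) placed the 3 deep libraries between 5.09 and 8.92 and the 3 superficial libraries between −9.02 and −3.57. On the second component (34.6%) both libraries of animal 3 lay at −8.73 and −7.71, below those of the other animals, which lay between 0.993 and 8.95. The typical difference between the sublayers of 1 animal, the median absolute log2 ratio, was 0.09, 0.14 and 0.09 in animals 1, 2 and 3. Libraries of 1 sublayer from different animals differed by 0.08 to 0.14.

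The within-animal differences of the 3 animals were compared with each other. Across the same 6769 identifiers, the log2 differences of animals 1 and 2 correlated at r = 0.637, those of animals 1 and 3 at 0.740 and those of animals 2 and 3 at 0.633. Over all 14791 identifiers tested, weakly expressed ones included, the values were 0.339, 0.382 and 0.357. These are descriptions across genes, which share libraries and scaling and are not independent replicates. Animal 2 had the largest difference in the superficial direction: its median log2 difference was 0.38 for the superficial-higher identifiers, against 0.28 and 0.29 in animals 1 and 3. For the deep-higher identifiers animal 2 did not stand out, with −0.40 against −0.45 and −0.47.

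Each animal was then scored on identifiers that had been called without it. Leaving out animals 1, 2 and 3 gave 217, 161 and 207 superficial-higher identifiers, of which 216, 159 and 204 were higher in the superficial library of the animal left out. The deep-higher lists held 207, 255 and 213 identifiers, of which 205, 250 and 213 were higher in the deep library of that animal. Over all identifiers tested, 67 to 69.2% had the same direction in the animal left out as in the other animals. The median difference of the superficial-higher lists was 0.46, 0.45 and 0.47 in the animals that chose them and 0.38, 0.46 and 0.38 in the animal left out. For the deep-higher lists the medians were −0.53, −0.54 and −0.52 in the choosing animals and −0.48, −0.38 and −0.49 in the animal left out. Values of the choosing animals are fitted log2 fold changes, and those of the animal left out are differences of log2 CPM. The 2 measures differ, so the sizes are not strictly comparable.

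**Figure D4:**
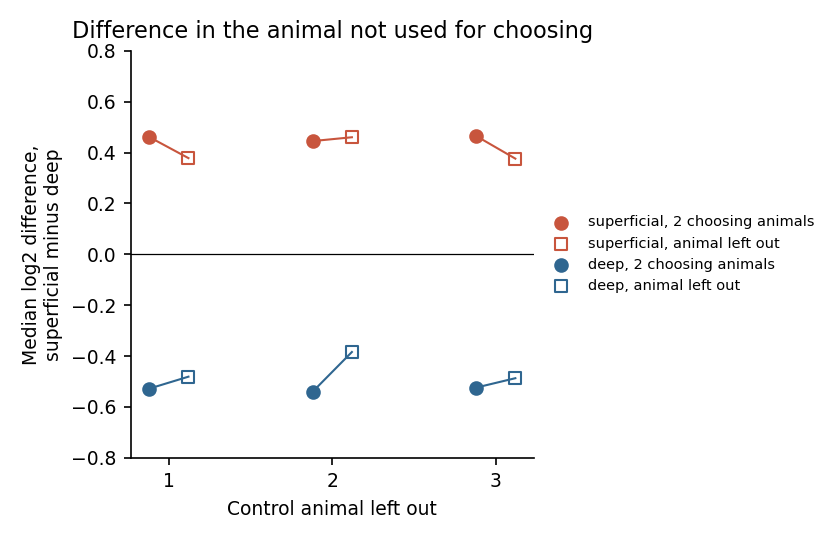
Median log2 difference, superficial minus deep, of identifiers called without 1 control animal, shown in the 2 animals that chose them (filled circles) and in the animal left out (open squares), for each animal in turn. The median kept its sign in each animal left out, at 0.38 to 0.46 for superficial-higher and −0.49 to −0.38 for deep-higher lists. Circles are fitted log2 fold changes and squares are differences of log2 CPM.

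The number of identifiers called differed between fits, and with RLE size factors it was 1228. A fit of the 6 control libraries alone called 2375, among them 1236 of the 1248. The sublayers of control animals gave a coefficient of biological variation of 4.16%, against 7.39% for those of epileptic animals, and the count of 1248 rests on a spread that both conditions share. Without the term for the animal 5 identifiers were called, with 1136 at an unadjusted p below 0.05, against 3376 (22.8%) with it. Without control animal 1, 2 or 3 the calls numbered 424, 416 and 420, of which 418, 408 and 414 belonged to the 1248. Without epileptic animals 1, 2 and 3 they numbered 1977, 933 and 2071. A group of 212 identifiers, 97 superficial-higher and 115 deep-higher, was called in 13 fits: the 10 that kept all 12 libraries or the 6 control libraries with the animal in the model, and the 3 without a control animal. Their median log2 fold change was 0.53 in absolute size and their median level 41.6 CPM. All 4 named identifiers kept their direction in each of the 16 alternatives. They had been chosen on the same libraries for large differences of 1 direction in all 3 animals, so this is no further evidence for them.

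**Figure D5:**
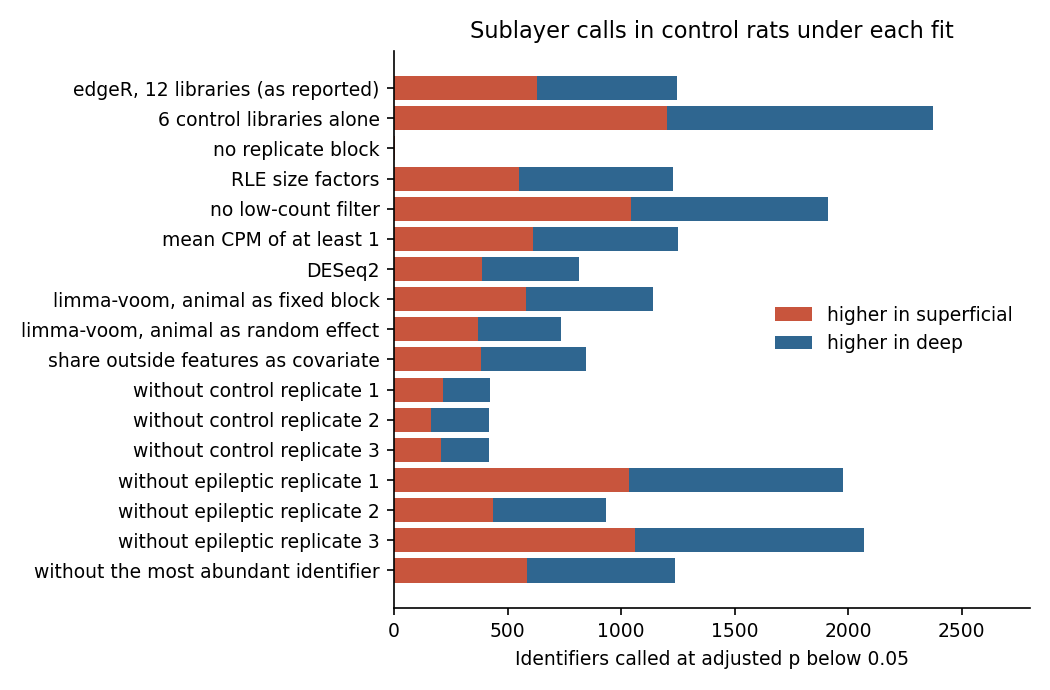
Bars give the number of identifiers called between superficial and deep CA1 in control rats at an adjusted p below 0.05, split by direction, as reported (1248) and in 16 alternatives. The count runs from 5 without the animal as a block to 2375 in the 6 control libraries alone, and the 2 directions are of similar size in most fits.

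The sublayer difference was also tested against that of epileptic rats. The difference between the control and the epileptic sublayer effect passed for 0 of 14791 identifiers (0.00%) by the edgeR fit, where 976 (6.60%) had an unadjusted p below 0.05. Other fits made some calls: 2 in DESeq2, 31 with the share of alignments outside features as a covariate, 84 without epileptic animal 1, 12 without epileptic animal 3 and 178 when low counts were not filtered. No single identifier is therefore described here as particular to control rats. The 95% interval of that difference excluded a 1.5-fold change of the sublayer effect for 9856 of 14791 identifiers tested. Among calls in the superficial direction this held for 567 of 630, and among those in the deep direction for 417 of 618. Unadjusted edgeR p-values below 0.05 were more frequent in these sets, at 80 (12.7%) and 146 (23.6%), than among all tested (6.60%). In 77 of the 80, 132 of the 146 and 834 of all 976, the epileptic effect was the smaller one. Both sets were chosen on the control effect that enters this difference, so these shares are no test of it. The 4 named identifiers had the same direction in all 3 epileptic animals. ENSRNOG00000025115 differed by 0.02 on the log2 scale between control and epileptic rats (SE 0.16, edgeR adjusted p = 0.994). The difference was largest for ENSRNOG00000022386, at −0.47 (SE 0.18, unadjusted p = 0.01684, edgeR adjusted p = 0.6722), where the sublayers of epileptic animals 1, 2 and 3 differed by −1.01, −0.89 and −0.35. ENSRNOG00000021067 had 8.69 to 23.1 CPM in the control and 0.954 to 11.4 CPM in the epileptic libraries, while its sublayer effect differed by 0.24 (SE 0.18, edgeR adjusted p = 0.8682).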

How the data were processed

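The authors deposited 1 table of raw read counts per library, whole numbers per Ensembl gene identifier. STAR 2.5.0c, HTSeq 0.6.1, SAMtools 0.1.19, FastQC 0.11.3 and the genome build Rnor_6.0 are named, per the submitters' processing notes, without settings. The sources used here do not say whether counting used strand. Thus overlapping, antisense or near-identical genes may share reads. Neither tests nor library sizes included the 5 summary tallies, which took up 69.2 to 71.4% of the tallied alignments in control libraries.

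Counts were filtered with filterByExpr of edgeR 4.0.16 in R 4.3.3, at a minimum count of 10 and a minimum total of 15, and scaled by TMM. The quasi-likelihood test with robust dispersions used all 12 libraries, a term for each of the 6 animals and a sublayer effect in each condition (4 residual degrees of freedom), and p-values were adjusted by Benjamini-Hochberg and called below 0.05. Fold changes are superficial over deep. SE and 95% intervals are Wald values of that fit. CPM uses the TMM-scaled library sizes, and log2 CPM a prior count of 2. Alternatives used DESeq2 1.42.0 and limma 3.58.1. The tests were checked on simulated counts.

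The pairing comes from the replicate number in the titles. Deviations of the deep and superficial library of an animal from their group means correlated at 0.611, 0.478 and 0.754 in control animals 1, 2 and 3, and at −0.579 to 0.163 between different animals. Deviations from a mean of 3 libraries cancel out for each identifier. Positive values within animals therefore push those between animals down, and the latter are no separate evidence for the pairing. No 2 libraries of a sublayer were duplicates, with a chi-square of 7.29 to 14.3 per identifier. The named identifiers are the 2 largest fold changes in each direction among those called, with a mean log2 CPM of at least 3 in control libraries and 1 direction in all 3 animals. Comparison and lists were chosen with earlier results of these data known. The 37 gene lists could not be applied without gene names, so that the fit without mitochondrially encoded genes was not run either.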

Additional observations from a re-analysis of the deposited data

Results flagged for a closer look

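The share of alignments tallied as ambiguous, which overlap more than 1 gene, moved in opposite directions in the 2 conditions. It was higher in the superficial library of each of the 3 control animals, by 0.00129, 0.0396 and 0.00974 percentage points in animals 1, 2 and 3 (mean 0.0169, from 0.235% in deep to 0.252% in superficial libraries, most of it from animal 2), and lower in the superficial library of each of the 3 epileptic animals, where superficial minus deep was −0.01, −0.0534 and −0.00977 percentage points. The difference between the conditions was not tested.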

How the results depend on the processing

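Against 1248 identifiers called between the sublayers of control rats, the count was 2375 in the 6 control libraries alone, 5 with no replicate block, 1910 with no low-count filter, 815 in DESeq2 and 734 in limma-voom with a random animal effect. It was 416 to 424 without 1 control animal, where fewer animals enter the contrast, and 933 to 2071 without 1 epileptic animal. It stayed within 1.5 times 1248 with RLE size factors (1228), a mean CPM of at least 1 (1250), limma-voom with the animal as fixed block (1139), the share outside features as a covariate (845, of which 642 were among the 1248) and, added after seeing the data, without the most abundant identifier (1236). Superficial-higher calls made up 50.5%, with 44.8% under RLE and 38.7% without control animal 2. The difference between control and epileptic rats called 0 identifiers, but 178 with no low-count filter, 2 in DESeq2, 31 with the covariate, and 0 to 84 without 1 animal, the 84 without epileptic animal 1 and 12 without epileptic animal 3. The cause of these shifts was not tested. Of 64 values of the 4 named identifiers under the alternatives, which reuse the libraries they were chosen on, 0 reversed and 5 lost the call. These were all 4 with no replicate block (adjusted p = 0.2704 to 0.7528) and ENSRNOG00000021067 in limma-voom with a random animal effect (adjusted p = 0.05089). Below 1 CPM 1.12% of the identifiers tested were called, the lowest share among the classes of level. The part of depth in this was not tested.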
